A study of Homo sapiens with 6 samples.

Results

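The genes of the cyclic AMP (cAMP) enzymes were compared between A375RIPK4.KO and A375neg melanoma cells. The set holds every gene of the deposited table whose symbol names a phosphodiesterase (PDE followed by a number and a letter from A to D), a numbered adenylyl cyclase (ADCY), a numbered A-kinase anchor protein (AKAP) or 1 of the subunits of protein kinase A (PKA: PRKACA, PRKACB, PRKAR1A, PRKAR1B, PRKAR2A, PRKAR2B). It has 47 members among 20851 genes, with 22 phosphodiesterases, 8 cyclases, 11 anchors and 6 PKA subunits. The question was whether PDE3B, which was all but silent in the control cells and transcribed in the knockout cells, was accompanied by changes in other enzymes that make, break down or read cAMP. The rule uses symbols only, but the set was chosen with the switch of PDE3B in these libraries already known.

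A375 is an established human melanoma cell line. A375RIPK4.KO is a subline, clone #1, in which the receptor-interacting protein kinase gene RIPK4 was targeted with CRISPR/Cas9 delivered by a lentivirus, and A375neg carries a nontargeting guide with the same nuclease. The labels also name A375neg a GFP control, a term given for that group alone, and a difference in GFP and the loss of RIPK4 cannot be told apart here. Each group has 3 libraries, numbered 1 to 3, which the study describes as independent biological replicates. Because all 3 knockout libraries come from 1 clone, an effect of losing RIPK4 and a property of that clone cannot be told apart, and the p-values measure the spread between libraries of that clone and its control. In bulk RNA, fewer cells of a type and less RNA per cell cannot be told apart either.

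Cyclic AMP is made from ATP by adenylyl cyclases under the control of receptor-coupled G proteins, and it is broken down by phosphodiesterases, several of which also or only hydrolyse cyclic GMP. Its main reader is PKA, which is held inactive by regulatory subunits until cAMP binds them and frees the catalytic subunits. Anchor proteins place PKA, and often a phosphodiesterase beside it, at particular sites in the cell, and the freed kinase phosphorylates CREB, a transcription factor that binds the cAMP response element. In melanocytes this route links the melanocortin receptor MC1R to the lineage factor MITF and to pigment synthesis.

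The 6 libraries held 21882863 to 26694140 counts assigned to genes, and a count of 0 allows up to 3 counts, or 0.113 to 0.134 CPM (counts relative to the TMM-scaled library size), a limit that covers counting error only. RIPK4 had 319, 368 and 404 counts in A375neg and 42, 51 and 61 in A375RIPK4.KO, so its RNA separated the groups as labelled (log2 fold change −2.69, SE 0.17). Of the melanocyte lineage markers, SOX10 was abundant, at 9128 ± 359 (SD, n = 3) TMM-normalized counts in A375neg and 7962 ± 185 in A375RIPK4.KO, and MITF was detected. S100B was called lower, at 114 ± 35 and 61.5 ± 3.0 normalized counts (adjusted p = 0.036, with 0.126 without A375neg replicate 3 and over 0.05 also without A375neg replicate 2, A375RIPK4.KO replicate 1 or A375RIPK4.KO replicate 3). TYRP1 reached at most 8 counts and PMEL 22 in any library, and TYR, DCT and MLANA were not analysed here. Leaving out CD68, which is not limited to macrophages, the markers of other cell types summed to 61.0 to 64.5 normalized counts in A375neg and 19.3 to 32.8 in A375RIPK4.KO over 7 listed genes, the endothelial marker PECAM1 among them falling from 21.6 ± 0.96 to 4.89 ± 0.45. The part of these markers in the results below was not tested.

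Counts were compared across the whole table with edgeR's quasi-likelihood test and Benjamini-Hochberg adjustment, and a gene is called higher or lower at an adjusted p under 0.05 with a fold change of at least 1.5. Of the 47 members, 36 had enough counts to be tested. PDE3B, PDE4B, PRKACB and AKAP6 were higher in A375RIPK4.KO, and PDE4D, PDE3A and PDE7B were lower. These are 4 members higher, where 4.39% of all 14443 genes tested were called higher, and 3 lower, where 4.65% were called lower (9.04% in either direction). PDE3B is counted among the 4 although the set was built around it, so it adds nothing to that comparison. PDE7B is counted among the 3 although it passed the filter on low counts only through the A375neg libraries, where it is high. A further 5 members passed the adjusted p but stayed under 1.5-fold, with PDE1C, ADCY9 and AKAP12 higher and AKAP8 and PRKAR1A lower, against 16.6% of all tested genes past the adjusted p alone. The remaining 24 did not pass. In 18 of the 36 the normalized counts separated the groups completely, 10 of them higher and 8 lower, where 36.5% of all tested genes did so, and the median log2 fold change of the 36 was 0.035, close to −0.0047 over all genes tested. Calls were thus made in both directions, 5 of the 7 among the phosphodiesterases, which are 15 of the 36 tested members. Whether families differ in their share of calls was not tested.

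**Figure D1:**
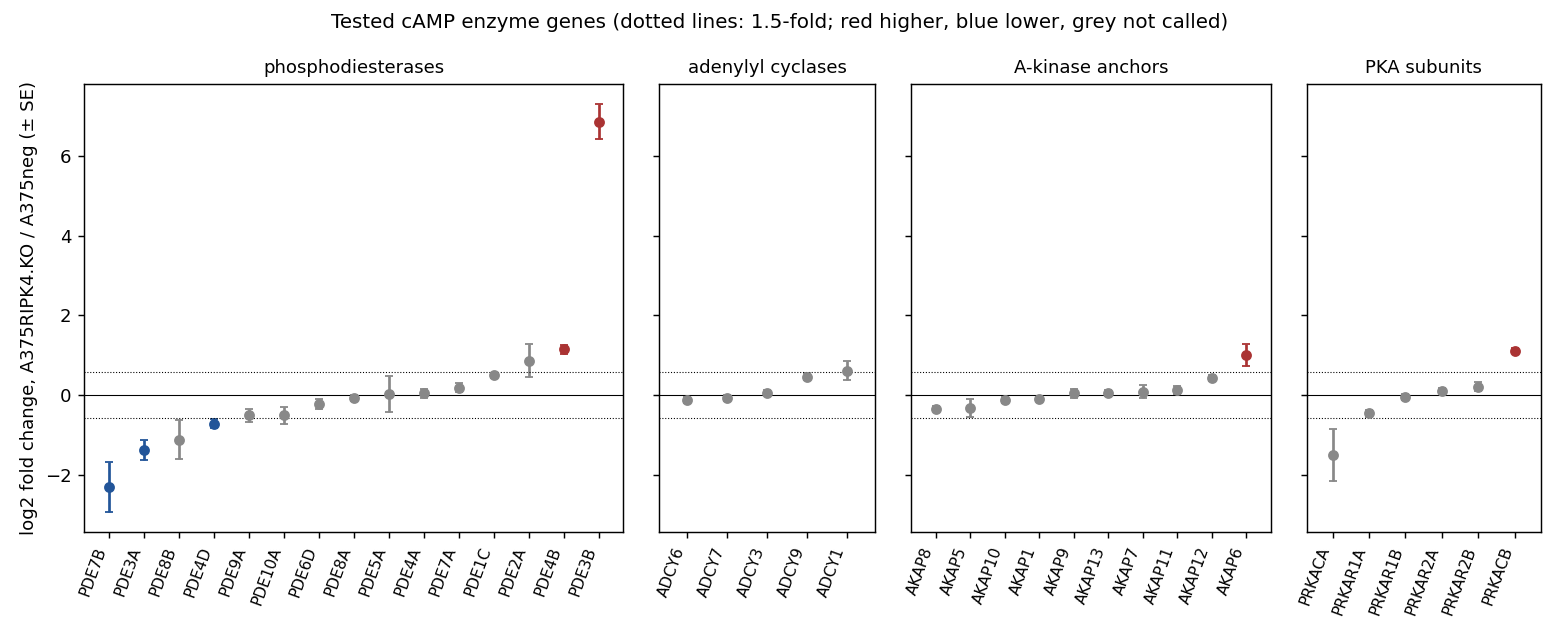
Log2 fold change (A375RIPK4.KO over A375neg, ± SE from edgeR, 3 libraries per group) of the 36 tested members, in 1 panel per family; dotted lines mark 1.5-fold, red points were called higher, blue points lower and grey points neither. PDE3B stands alone at 6.86, the next highest members lie near 1, and only the phosphodiesterases hold blue points.

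PDE3B, which encodes a cAMP phosphodiesterase inhibited by cyclic GMP and best known from fat and liver cells, was found at 1, 2 and 0 raw counts in A375neg and at 115, 126 and 117 in A375RIPK4.KO. The control libraries were at or below the limit of 3 counts, and the knockout libraries were close to each other, at 125 ± 6.46 normalized counts. PDE3B was at least 43.7-fold higher, computed against 3 counts in each control library. It passed the filter on low counts only through the knockout libraries and was known to differ, so the values are given as a description. The gene (ENSG00000152270) lies on the plus strand of chromosome 11, from 14643723 to 14872044 in GRCh38. Markers of fat and liver cells did not accompany it, since the 3 analysed (PLIN1, LIPE and APOA1) summed to 22.7 to 45.0 normalized counts in A375neg and 19.7 to 44.6 in A375RIPK4.KO.

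The other gene of the subfamily, PDE3A, was called lower. It had 69, 63 and 68 counts in A375neg and 28, 22 and 20 in A375RIPK4.KO, without overlap, a fall by 1.37 on the log2 scale (SE 0.25, adjusted p = 0.00557). Per kilobase of exon, the level of both genes together went from 0.313 ± 0.025 CPM per kb to 0.556 ± 0.039, and PDE3B supplied 1.09% ± 1.11 of it in A375neg and 78.6% ± 3.4 in A375RIPK4.KO. The PDE3 subfamily therefore changed its leading member while staying a small part of the total, as PDE3B made up 0.930%, 0.981% and 0.874% of the summed phosphodiesterase level in the 3 knockout libraries.

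The PDE4 subfamily, the cAMP-specific and rolipram-sensitive enzymes, changed in composition as well. PDE4B had 243, 330 and 298 counts in A375neg and 562, 637 and 554 in A375RIPK4.KO, and it was 2.22-fold higher (log2 fold change 1.15, SE 0.11, adjusted p = 0.000167). PDE4D fell from 908, 982 and 1161 counts to 618, 506 and 566, by 0.71 on the log2 scale (SE 0.11, adjusted p = 0.00272). For both genes every knockout library lay outside the range of the controls. PDE4A, with 479 ± 46 normalized counts against 494 ± 40, did not pass (adjusted p = 0.82), and PDE4C stayed at 3 counts or fewer in each library. As a share of the PDE4 level, PDE4B went from 19.6% ± 2.1 to 39.1% ± 3.5 and PDE4D from 36.3% ± 1.5 to 19.9% ± 1.6. The summed PDE4 level was 6.68 ± 0.62 CPM per kb in A375neg and 7.41 ± 0.44 in A375RIPK4.KO, and the ranges of the groups overlapped.

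**Figure D2:**
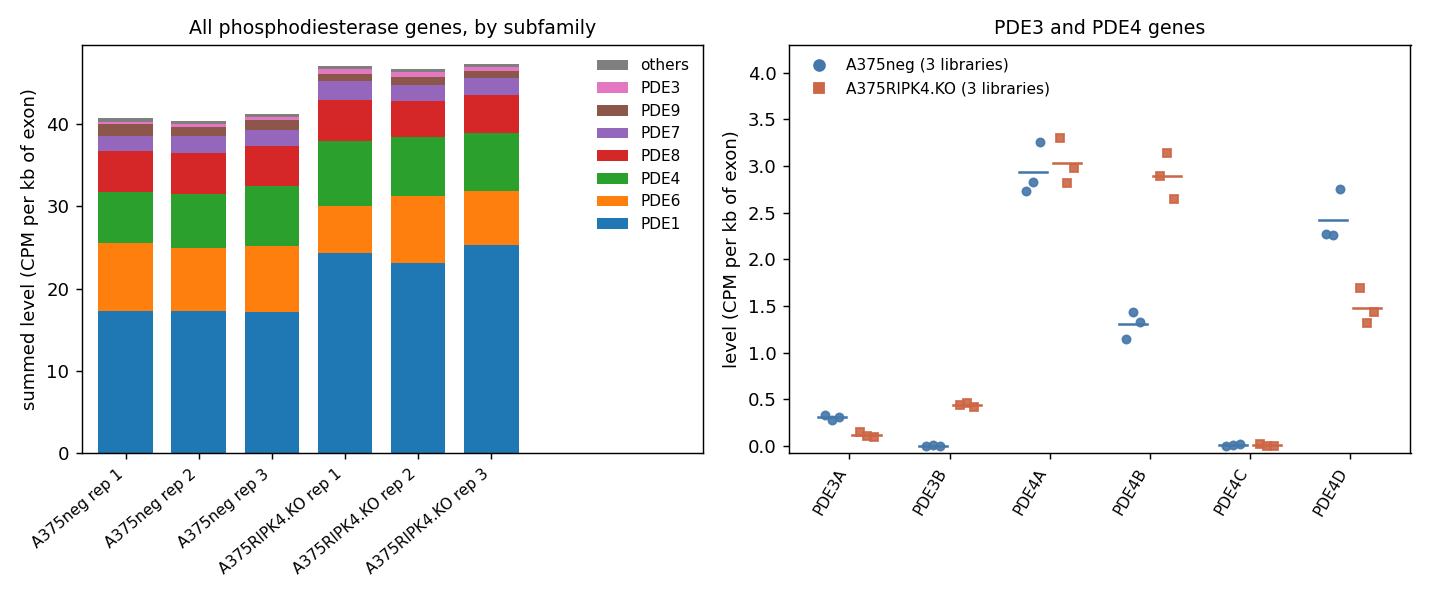
Left, summed level of all 22 phosphodiesterase genes (CPM per kb of exon) in each library, split by subfamily, with PDE2, PDE5, PDE10 and PDE11 as others; right, the same scale for the PDE3 and PDE4 genes, a point per library and a line at the group mean. PDE1 is the largest block in all 6 libraries and PDE3 a thin band, while PDE3A against PDE3B and PDE4D against PDE4B move in opposite directions.

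The most abundant phosphodiesterase was PDE1C, a calcium- and calmodulin-stimulated enzyme that hydrolyses both cyclic nucleotides. It had 5833, 6338 and 6112 counts in A375neg and 7532, 7487 and 8443 in A375RIPK4.KO, which is 17.2 ± 0.072 and 24.2 ± 1.1 CPM per kb. Every knockout library was above the controls, and the change of 1.41-fold passed the adjusted p (0.000478) but not the fold limit. PDE1C held 42.2% ± 0.62 of the phosphodiesterase level in A375neg and 51.5% ± 2.0 in A375RIPK4.KO. The summed level of the 22 genes was 40.7 ± 0.43 and 47.0 ± 0.31 CPM per kb, a difference smaller than that of PDE1C alone, and PDE3B rose from 0.0033 ± 0.0032 to 0.436 ± 0.022 CPM per kb. The next most abundant gene, PDE6D (7.95 ± 0.28 and 6.81 ± 1.19 CPM per kb), encodes a chaperone of prenylated proteins and not a hydrolase in its own right.

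Of the cAMP-specific PDE7 and PDE8 enzymes, PDE7B was called lower on few counts, 13, 12 and 20 in A375neg and 5, 1 and 2 in A375RIPK4.KO (log2 fold change −2.30, SE 0.62, adjusted p = 0.0351). It passed the filter only through the A375neg libraries. It was called in only 1 of the 6 fits that leave out a library (the one without A375RIPK4.KO replicate 1), and the adjusted p reached 0.129 without A375neg replicate 3. Its abundant relatives PDE7A (337 ± 26 and 384 ± 27 normalized counts) and PDE8A (932 ± 23 and 880 ± 62) did not pass. PDE9A, a cyclic GMP enzyme, had 182, 158 and 181 counts in A375neg and 101, 123 and 111 in A375RIPK4.KO, and PDE10A, which takes both nucleotides, had 159, 119 and 121 against 97, 72 and 88. Neither gene overlapped between the groups, and neither passed the adjusted p (0.0646 and 0.158). PDE2A, PDE5A and PDE8B were tested at means below 25 normalized counts and did not pass. Of these, PDE2A (higher) and PDE8B (lower) did not overlap between the groups. PDE1A, PDE1B, PDE4C, PDE6A, PDE6B, PDE6C and PDE11A, with at most 10 counts in any library, were removed by the filter on low counts. With no filter, none of these 7 passed in edgeR (adjusted p 0.25 to 0.959), although PDE6A (6, 4 and 7 against 2, 1 and 1 counts) did not overlap between the groups.

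**Figure D3:**
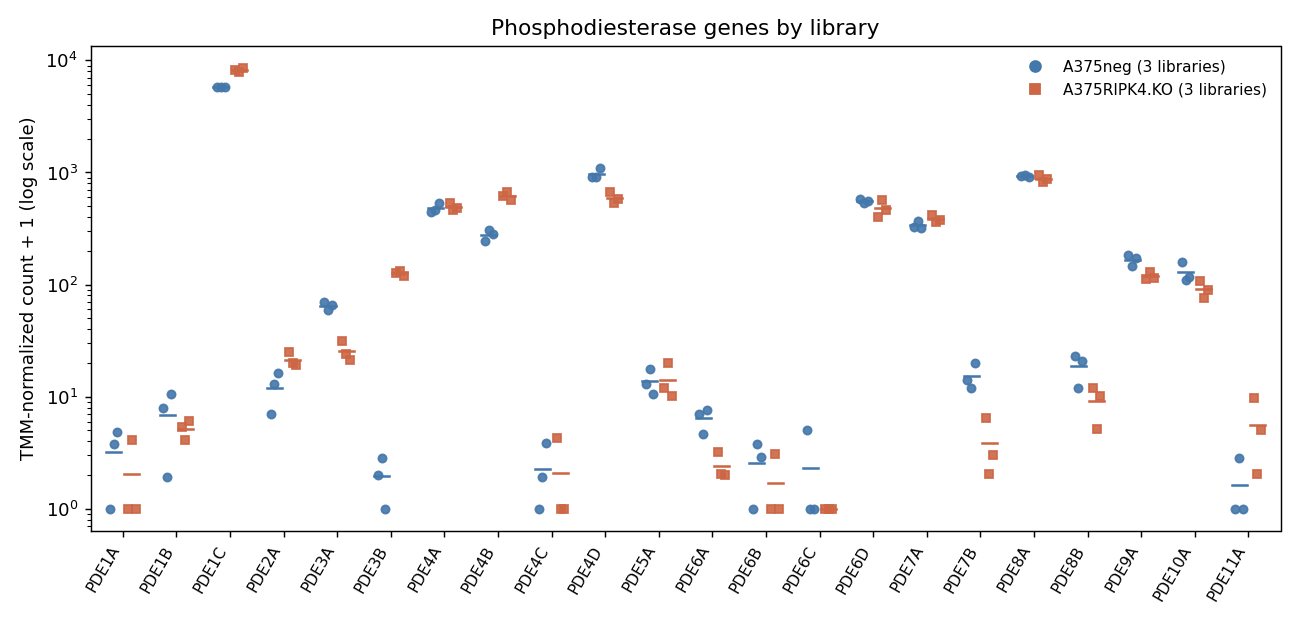
TMM-normalized counts plus 1, on a log axis, of all 22 phosphodiesterase genes, a point per library and a line at the group mean. PDE3B goes from near the floor of the axis to above 100 in all 3 A375RIPK4.KO libraries; PDE3A, PDE4D and PDE7B are lower and PDE4B and PDE1C higher without overlap.

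None of the 5 adenylyl cyclases tested was called in either direction by edgeR or by DESeq2 (2, ADCY9 and ADCY1, had an unadjusted p under 0.05 in edgeR, both higher). ADCY3, the most abundant and a calmodulin-responsive cyclase, had 2303, 2656 and 2530 counts in A375neg and 2262, 2340 and 2509 in A375RIPK4.KO, or 16.0 ± 0.49 and 16.7 ± 0.35 CPM per kb (log2 fold change 0.062, SE 0.057, adjusted p = 0.52). ADCY9, a cyclase with weak sensitivity to forskolin, went from 502, 588 and 552 counts to 612, 669 and 777, above all controls, and passed the adjusted p (0.00636) at 1.38-fold. ADCY6 and ADCY7 changed by −0.13 and −0.073 on the log2 scale and did not pass. ADCY1 was low, at 36, 39 and 29 against 42, 54 and 49 counts, without overlap, and did not pass (adjusted p = 0.127). ADCY5, ADCY8 and the soluble cyclase gene ADCY10 were at 8 counts or fewer and removed by the filter. ADCY8 (1, 0 and 3 against 5, 4 and 5 counts) and ADCY10 (5, 5 and 8 against 2, 1 and 0) did not overlap between the groups, and neither passed with no filter (adjusted p 0.339 and 0.21). The summed cyclase level was 27.7 ± 0.69 CPM per kb in A375neg and 28.6 ± 0.69 in A375RIPK4.KO.

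All 6 PKA subunit genes were tested, and PRKACB alone was called. PRKACB, encoding the catalytic subunit beta, had 1183, 1247 and 1242 counts in A375neg and 2264, 2443 and 2556 in A375RIPK4.KO. The replicates lay close together on both sides, and the gene was 2.17-fold higher (log2 fold change 1.12, SE 0.057, adjusted p = 3.5e-06), the lowest adjusted p of the set. PRKACA, which encodes the catalytic subunit alpha, had 56, 313 and 51 counts in A375neg and 46, 28 and 58 in A375RIPK4.KO. A375neg replicate 2 stands apart from the other 5 libraries, the fold change did not pass (log2 fold change −1.51, SE 0.65, adjusted p = 0.157), and without that library it was −0.18 (adjusted p = 0.807). PRKACB was thus the predominant catalytic gene in each library, at 7.08 ± 0.11 and 15.4 ± 0.36 CPM per kb, with PRKACA at 0.868 ± 0.905 and 0.306 ± 0.101.

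Among the regulatory subunits, PRKAR1A, encoding type I alpha, had 4259, 4590 and 5313 counts in A375neg and 3024, 2795 and 3566 in A375RIPK4.KO. All knockout libraries were below the controls, and the fall by 0.46 on the log2 scale (SE 0.10, adjusted p = 0.0114) was under the fold limit. PRKAR2A (type II alpha, 4578, 4855 and 4913 against 4696, 4498 and 4954 counts), PRKAR1B (1229, 1476 and 1324 against 1068, 1297 and 1172) and PRKAR2B (361, 348 and 433 against 421, 388 and 397) did not pass, with log2 fold changes of 0.12, −0.051 and 0.22. After normalization every knockout library was above the controls for PRKAR2A, and the groups overlapped for PRKAR1B and PRKAR2B. PRKAR1A therefore went from 38.4% ± 2.0 to 30.0% ± 2.1 of the summed regulatory level. The ratio of summed catalytic to summed regulatory level was 0.111, 0.130 and 0.101 in the A375neg libraries and 0.232, 0.251 and 0.240 in the A375RIPK4.KO libraries. With PRKACB alone as the catalytic term, which sets aside the uneven PRKACA library, it was 0.101 ± 0.0045 and 0.236 ± 0.011. These are ratios of RNA levels per length and say nothing of the amounts of protein.

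**Figure D4:**
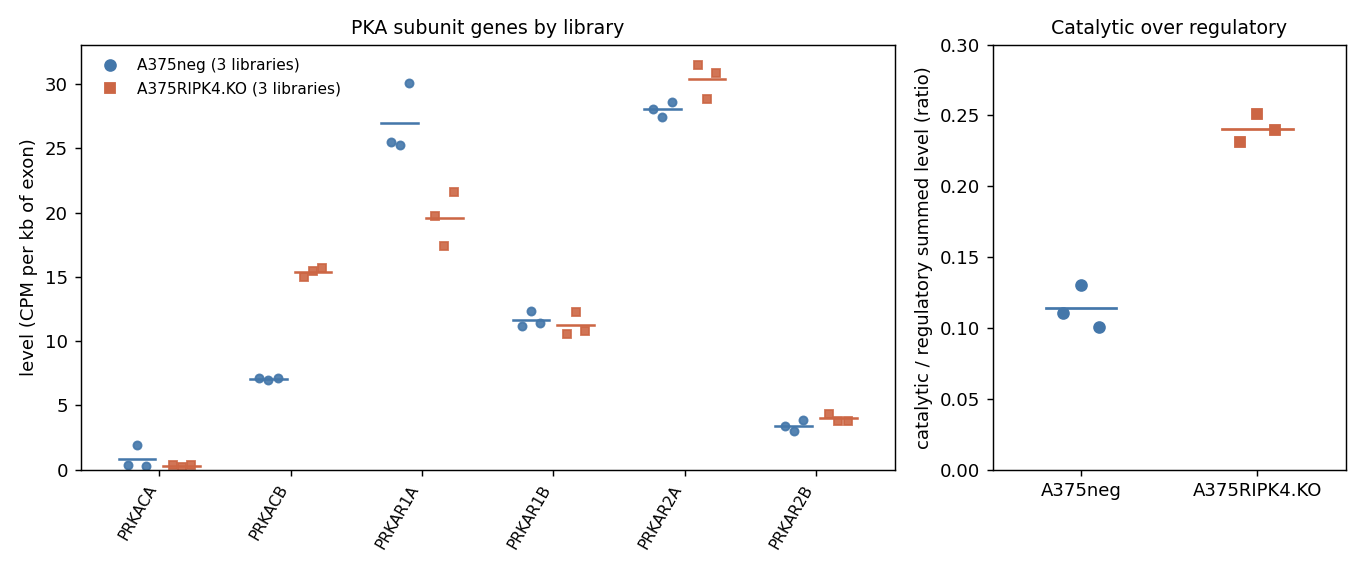
Left, level of the 6 PKA subunit genes (CPM per kb of exon) by library, with a line at the group mean; right, the ratio of the summed catalytic to the summed regulatory level. PRKACB lies near 7 in A375neg and 15 in A375RIPK4.KO, PRKAR1A is lower in A375RIPK4.KO, and the ratio is between 0.101 and 0.130 in A375neg and between 0.232 and 0.251 in A375RIPK4.KO.

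Of the 10 anchors tested, AKAP6 alone was called. AKAP6, which gathers PKA at the nuclear envelope and is best known from muscle and neurons, had 59, 37 and 71 counts in A375neg and 96, 86 and 124 in A375RIPK4.KO (log2 fold change 0.999, SE 0.27, adjusted p = 0.0371). The call was lost without A375neg replicate 1, A375neg replicate 2, A375RIPK4.KO replicate 1 or A375RIPK4.KO replicate 3, with adjusted p up to 0.129. AKAP12, the scaffold also called gravin, was the most abundant anchor, with 14283, 14746 and 16563 counts in A375neg and 18670, 17461 and 20177 in A375RIPK4.KO. It was 1.36-fold higher (adjusted p = 0.0043) and supplied 54.0% ± 1.9 of the summed anchor level in A375neg and 62.7% ± 0.46 in A375RIPK4.KO. AKAP8, a nuclear anchor, fell by 0.34 on the log2 scale (adjusted p = 0.00773), from 1402 ± 66 to 1105 ± 42 normalized counts. The mitochondrial anchor AKAP1, AKAP10, the centrosomal AKAP9, AKAP11, AKAP13, AKAP5 and AKAP7 did not pass, with log2 fold changes between −0.32 and 0.13, and AKAP3 reached at most 5 counts and was removed by the filter.

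The rest of the pathway was read from 9 lists of receptors, G proteins, effectors, other anchors and CREB genes with 113 symbols, of which 92 were in the table and 71 were tested. Of these, 8 were higher and 8 lower, where 4.39% and 4.65% of all genes tested were, and their median log2 fold change was −0.079. Upstream of the cyclases, the receptor genes S1PR1 (sphingosine-1-phosphate, 345 ± 33 to 726 ± 24 normalized counts) and EDNRB (endothelin B, 185 ± 14 to 392 ± 40) were higher and RAMP1, a partner of calcitonin-family receptors, was lower (370 ± 32 to 216 ± 38). EDNRB is also in the study's own selection from these libraries, so its direction is not independent evidence. MC1R went from 202 ± 12 to 286 ± 14 normalized counts and passed the adjusted p (0.0204) but not the fold limit. Its adjusted p reached 0.0713 with 1 library left out. None of the 6 stimulatory and inhibitory G protein genes was called, GNAS and GNAI2 being the most abundant with log2 fold changes of 0.057 and −0.079. DESeq2 called 0 of the 6 as well, and 1 (GNAZ) had an unadjusted p under 0.05 in edgeR (0.04).

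Downstream of cAMP, RAPGEF3, encoding the exchange factor EPAC1, had 90, 101 and 103 counts in A375neg and 172, 177 and 170 in A375RIPK4.KO (1.94-fold higher, adjusted p = 0.00226). PKIG, an inhibitor peptide of the PKA catalytic subunits, went from 647 ± 30 to 1003 ± 133 normalized counts (1.55-fold, adjusted p = 0.00262). PRKG1, the cyclic GMP-dependent kinase, had 2, 7 and 11 counts in A375neg and 50, 69 and 69 in A375RIPK4.KO (log2 fold change 3.35, SE 0.44). The microtubule-bound anchor MAP2 was higher on 5, 5 and 4 against 14, 14 and 17 counts, a call that was lost without any single library (adjusted p 0.0535 to 0.0956). Both genes passed the filter on low counts only through the knockout libraries, where they are high, and both are counted among the 8. Of the 13 other anchors tested, MAP2 alone was called, and 2 passed the adjusted p alone, both lower.

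CREB5, listed here with the CREB factors, had 32, 43 and 50 counts in A375neg and 266, 209 and 317 in A375RIPK4.KO. It was 6.95-fold higher (adjusted p = 4.24e-05), and whether PKA acts on it was not tested. CREB1, CREM, ATF1 and the coactivators CRTC1 and CRTC2 did not pass. The third coactivator, CRTC3, went from 734 ± 15 to 893 ± 35 normalized counts and passed the adjusted p (0.022) but not the fold limit. Its adjusted p reached 0.0958 with 1 library left out. Over all genes tested, 4.65% were called lower. Of 14 textbook CREB targets tested, 7 were lower, namely NR4A1, NR4A2, FOS, EGR1, BDNF, VGF and AREG (7 by DESeq2 too). None was higher by either tool or at an unadjusted p under 0.05 in edgeR, and the median log2 fold change of the 14 was −0.62, beside −0.0047 over all genes. The list was chosen with earlier results of these data known, and all its genes were read in the same libraries. The shared direction of these targets is therefore not independent evidence. NR4A1 is also in the selection that the study made from these libraries. The nuclear receptor NR4A1 had 1838, 1872 and 2077 counts in A375neg and 780, 779 and 910 in A375RIPK4.KO, the neuropeptide precursor VGF 2519, 2527 and 2778 against 1023, 1343 and 1188, and the EGF receptor ligand AREG 564, 644 and 652 against 101, 126 and 141. No knockout library reached the range of the controls for any of the 3. JUNB, the most abundant of the list per length, went from 2121 ± 55 to 2000 ± 260 normalized counts, and PER1, CITED2, FOSB, NR4A3, DUSP1 and PPARGC1A likewise did not pass. Several of these genes also answer to the MAP kinase route and other signals, and the part of CREB in their fall was not tested.

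**Figure D5:**
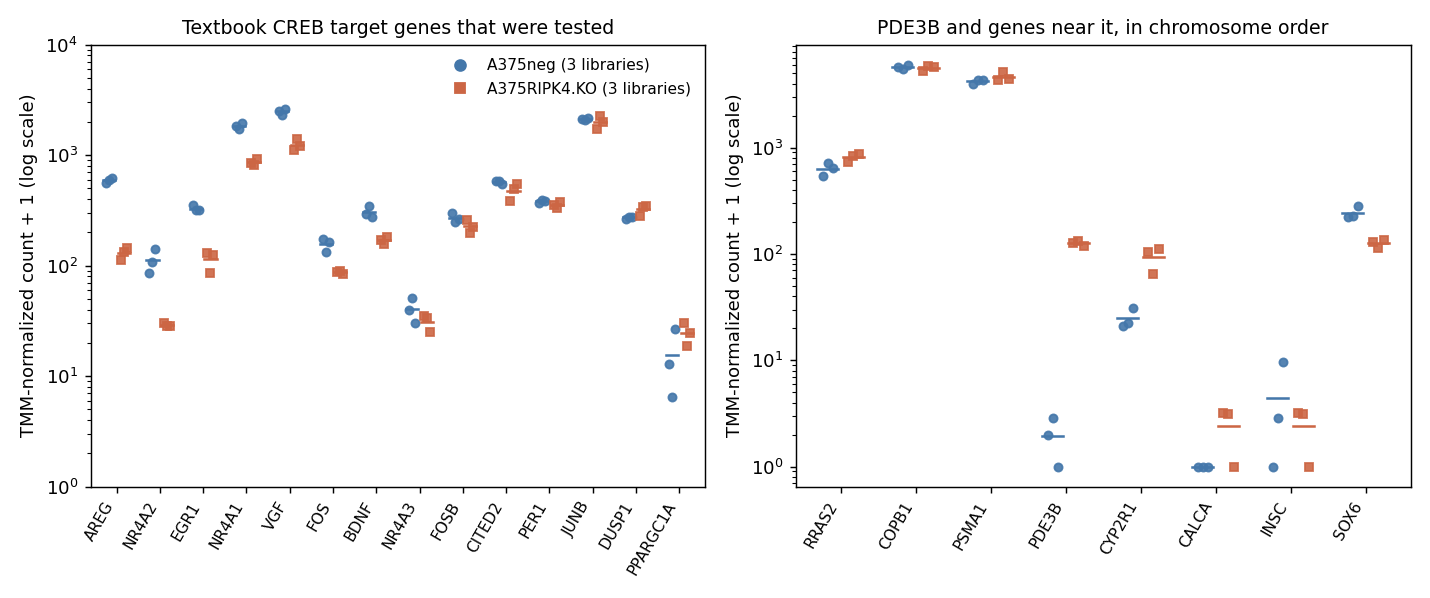
TMM-normalized counts plus 1, on a log axis, a point per library and a line at the group mean, for the 14 tested CREB target genes in order of their log2 fold change (left) and for PDE3B and the analysed genes around it in chromosome order (right). The 7 leftmost targets are lower in A375RIPK4.KO without overlap; on the right, PDE3B and its downstream neighbour CYP2R1 are higher and SOX6 is lower.

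The cAMP response element was looked for by its full 8-base palindrome, TGACGTCA, in the RefSeq promoters (GRCh38.p14, 250 bases before a listed start to 50 after), of which 40 of the 47 members had at least 1. PDE3B, PDE7A, PDE9A, ADCY6, ADCY8, ADCY9 and AKAP3 were not matched. The palindrome reads alike on both strands and was held by 4 of 108 promoters of members (3.7%), where 1.85% of all 35116 promoters held it. The shorter sites TGACG and CGTCA, which the full element contains and which overlap within it, were in 25% of the members' promoters and 24.6% of all promoters. The 3 members with a full element are shown with 10 bases to each side, 5′ to 3′ on the strand of the gene and with the element in capitals, followed by the 2 CREB targets that were called lower and hold it:
PDE7B, chr6:135851536-135851563, plus strand: ctaaacccttTGACGTCActcttgaaat
PRKAR1A, chr17:68512371-68512398, plus strand: cgaggcgcatTGACGTCAgtagccgaac
PDE4A, chr19:10416760-10416787, plus strand: gtcagtccgcTGACGTCAcgccccagga
AREG, chr4:74445061-74445088, plus strand: ggccgggcctTGACGTCAtgggctgcgg
VGF, chr7:101165631-101165658, minus strand: gaatgaacatTGACGTCAatggggcggg
The element begins at −155 of the listed start of PDE7B and at −3 of that of PDE4A, and the single site of PRKAR1A lies in 2 overlapping promoters, at −49 of 1 start and at 2 of the other. Beside the sequences, PDE7B, AREG and VGF were called lower, PRKAR1A was lower by the adjusted p alone and PDE4A did not pass. Of the 15 textbook CREB targets with a promoter, AREG, VGF and DUSP1 held the element (3 of 24 promoters, 12.5%). None was found for NR4A1, NR4A2, FOS, EGR1 or BDNF, which were also called lower. Whether the element goes with the calls was not tested. The same element was present in promoters of the listed genes DUSP1 and CREM, which did not pass, and in 1 of MITF, which fell by 0.44 on the log2 scale (adjusted p = 0.0449, over 0.05 without A375neg replicate 1, A375neg replicate 3 or any 1 of the A375RIPK4.KO libraries, and 0.0518 with no filter on low counts). A match is a description of these letters and not a binding site, and the absence of one from the other windows says nothing about the factor.

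The genes around PDE3B on chromosome 11 were read to see whether the neighbourhood moved with it. PSMA1, a proteasome gene on the opposite strand whose annotated start is 88 bases from that of PDE3B, had 4222 ± 215 and 4618 ± 425 normalized counts and did not pass (adjusted p = 0.31). COPB1, a coat protein gene 144 kb away, and RRAS2, a Ras relative 279 kb away, did not pass either, with log2 fold changes of −0.034 and 0.36. RRAS2 passed the adjusted p under DESeq2 (0.0419), with the replicate block (0.0213), with the length trend removed (0.0465) and without A375RIPK4.KO replicate 1 (0.046). On the other side, CYP2R1, a vitamin D 25-hydroxylase gene on the opposite strand that ends 5396 bases beyond PDE3B, had 20, 23 and 32 counts in A375neg and 94, 61 and 108 in A375RIPK4.KO (log2 fold change 1.94, SE 0.29, adjusted p = 0.00199). Every knockout library was above the controls. CALCA and INSC, further downstream, reached at most 2 and 9 counts and were not tested, and SOX6, over 1 Mb away, fell by 0.96 on the log2 scale (adjusted p = 0.00309). The libraries were strand-specific, but the strand setting of the counting is not given in the sources used here, so reads running on from PDE3B and reads of CYP2R1 were not separated.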

How the data were processed

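Poly(A)-enriched, strand-specific libraries of 3 A375neg and 3 A375RIPK4.KO samples were sequenced by the authors' provider. The submitters' processing notes name cutadapt, FastQC, HISAT2, HTSeq, DESeq2 and GRCh38.p13, without versions. The authors deposited whole-number raw counts per gene, which were used here, and a signal of counts scaled by size factors, which was not. The log2 fold changes, fold ratios, Wald scores, standard error scores and p-values in the same table were made by the authors with DESeq2 and deposited beside the counts, and were not used either.

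Tests were run with edgeR 4.0.16 in R 4.3.3 on the raw counts (TMM, filterByExpr, quasi-likelihood test, Benjamini-Hochberg over 14443 genes), with limma 3.58.1 loaded beside it. Normalized counts are raw counts scaled to a common TMM library size. SE is the log2 fold change over the square root of F. Levels are CPM per kb of the GENCODE 29 exon union, because the table lists 1 exon per gene, and gene positions are from that release. The listed exon overlapped the GENCODE gene for 41 of the 47 members. It did not for AKAP6, AKAP11, PDE6B, PDE8B, PDE11A and PRKAR1A. The lengths under the shares and the PKA ratio can thus come from another gene model than the counts. In GENCODE 29, exons of some members overlap those of other genes. On the opposite strand, ADCY7 shares 3593 of 8630 bases with BRD7 and ADCY3 1488 of 6058 with CENPO. On the same strand, PDE4C shares 4625 of 6546 bases and PDE8B 2889 of 6944. How reads of shared exons were counted is not given in the sources used here. Sums and shares were described without a test. Named genes are all members, called or most abundant genes of the lists, and the neighbours of PDE3B; further list genes were named after their values were seen, and 1 listed gene is not reported here. Members and lists were chosen with earlier results of these data known, and NR4A1 and EDNRB are also in the study's own selection from these libraries. The fits were tested on simulated counts. Alternatives were DESeq2 1.42.0 or its size factors, other filters, fold limits, a replicate block, a gene length trend removed and each library left out. Figures used Python 3.11.15 and matplotlib 3.10.9.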

Additional observations from a re-analysis of the deposited data

How the results depend on the processing

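PDE4B, PRKACB and PDE4D (and PDE3B, which was known to differ) were called in the same direction under all 12 refits, and PDE3A in 11 of them, as its mean is below the minimum of the stricter filter. AKAP6 was called in 8 and PDE7B in 4. PDE7B had an adjusted p of 0.0602 with DESeq2 and 0.0586 with the replicate block, and MAP2 0.0798 and 0.062. A minimum mean of 50 counts left 1 member lower in place of 3, by construction, since PDE3A and PDE7B then go untested. With no fold limit 7 members were higher and 5 lower, and at 2-fold 5 pathway genes were higher and 5 lower in place of 8 and 8. Leaving out 1 library gave 3 to 4 members higher, 2 to 3 lower, and 7 pathway genes higher (MAP2 was the one lost) and 8 lower. PDE3B held 0.928% of the phosphodiesterase level in A375RIPK4.KO, 1.04% as raw counts not divided by length and 1.09% without the PDE6 genes, and 0.902% to 0.956% with 1 library left out.

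The direction turned without 1 library for genes that did not pass in the first place, namely AKAP7 (log2 fold change −0.058 to 0.21), AKAP9 (−0.075 to 0.15), PDE4A (−0.019 to 0.13), PDE5A (−0.34 to 0.27), COPB1 (−0.065 to 0.016), JUNB (−0.18 to 0.0086), LIPE (−0.34 to 0.30) and PDE12 (−0.15 to 0.0093). PDE9A, PDE6D and PRKAR2A passed the adjusted p (0.0481, 0.0252 and 0.0412), each below 1.5-fold, without A375RIPK4.KO replicate 2. The counts of that library fell with gene length. Its deviation from the mean of all libraries had r = −0.11 with log2 length across 12916 genes, against −0.0092 to 0.0461 in the other libraries. The cause was not tested.

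Replicate numbers are shared by the groups. Deviations from the group mean correlated across genes at 0.0823, 0.0357 and −0.0119 for same-numbered libraries. For differently numbered libraries the correlations ran from −0.0956 to 0.0674. With 3 libraries per group, such small values do not settle whether the numbers pair the libraries, and the main test left them unpaired. With the replicate block, 4 members were higher and 2 lower, and 602 genes were higher and 664 lower in place of 634 and 672. The 11 members with at most 10 counts were left out by the filter, and with no filter 0 of them passed in edgeR (adjusted p 0.21 to 0.959), 1 of them (ADCY10) having an unadjusted p under 0.05. DESeq2 gave an adjusted p for PDE1B alone (0.861).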
